A study of Homo sapiens with 48 samples.

Results

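The 36 genes described here encode nuclear subunits of respiratory complex I, and they are 36 of the 48898 genes in a table of mRNA read counts from 2 human cell lines driven into senescence with doxorubicin. They were chosen by name: every row whose Ensembl identifier maps to one of 36 NDUF symbols was taken, and all 36 were found. IMR-90 cells are fibroblasts from fetal lung, and SK-MEL-103 cells come from a melanoma. Doxorubicin, a drug that damages DNA, was given at 200 nM for 48 h to make the cells senescent. The 48 libraries form 16 groups of 3 in 3 experiments.

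In each line, 1 experiment used small interfering RNAs (siRNAs) that were transfected a day before doxorubicin, and RNA was taken on day 7. Its 5 senescent groups received siMFN1, siMFN2, both together (siMFN1+2), siMAVS or the control siRNA cNEG, and the other group was proliferating cells that received cNEG and no doxorubicin. MFN1 and MFN2 are the mitofusins, which fuse outer mitochondrial membranes, and MAVS is a signalling adaptor on that membrane. The other experiment, in IMR-90 only, first induced senescence over 7 days. Cells were then exposed for 48 h to MFI8 (20 µM), BI (10 µM) or DMSO and harvested on day 9, with proliferating DMSO-treated cells as the further group. By the study's design MFI8 is an inhibitor and BI an activator of the mitofusins, and the labels name each by a code alone. Each line is a single line, so a difference between the lines describes these lines and not their tissues.

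Complex I takes electrons from NADH, passes them along a chain of iron-sulfur clusters to ubiquinone and pumps protons across the inner mitochondrial membrane. A few core subunits, some encoded in the nucleus and the rest in mitochondrial DNA, carry out catalysis, and a larger number of nuclear accessory subunits hold the complex together and are needed for its assembly. The matrix arm consists of the N module, where NADH is oxidised, and the Q module, where ubiquinone is reduced, while the membrane arm has a proximal and a distal part. Of the 36 genes, 8 were assigned to the N module, 7 to the Q module, 9 to the proximal and 12 to the distal membrane arm, and 6 of them encode core subunits.

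Libraries held 15206115 to 79204217 counts, and the 36 genes took 0.126% to 0.198% of the counts of a library. Replicate number 1 was the deepest in each group and number 3 the shallowest. All 36 genes had counts above 0 in every library and passed the filter on low counts in every comparison. Levels are given as CPM, which edgeR's function cpm computes from the counts and the library size scaled by TMM. A gene is said to have risen or fallen where its Benjamini-Hochberg adjusted p from edgeR's quasi-likelihood test, taken over all genes tested, was below 0.05, and a log2 fold change carries its standard error (SE). CDKN1A, the cell cycle inhibitor that p53 induces, rose with doxorubicin by a log2 fold change of 2.65 (IMR-90, day 7), 1.95 (SK-MEL-103) and 2.20 (IMR-90, day 9), LMNB1, whose loss marks senescence, fell in all 3 comparisons, and MFN1, MFN2 and MAVS fell under their own siRNAs in both lines. Whether the 3 libraries of a group are separate cultures is not stated, so a p-value measures only the spread between these libraries. In whole-culture RNA, fewer cells that express a gene and less of its RNA per cell cannot be told apart.

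Per exon length, the same genes led in every group. NDUFS5, NDUFB7 and NDUFB10, all accessory subunits of the membrane arm, ranked 1, 2 and 3 by mean RPKM (CPM per kilobase of exon) in all 16 groups. NDUFA9, NDUFA7 and NDUFV2 were below 1 RPKM in all 16 groups, and NDUFA13 was in 15 of them, siMAVS-treated SK-MEL-103 being the exception. The median of the 36 genes lay between 12.1 and 19.6 RPKM, lowest in IMR-90 given MFI8 and highest in proliferating SK-MEL-103. Over all libraries NDUFA7 held 710 counts and NDUFV2 held 785, while the NDUFV2 pseudogene NDUFV2P1 held 6777. NDUFA13 held 3272 counts and shares 21.0% of its exon bases with genes on the same strand, among them YJEFN3 with 13339 counts. NDUFB8, with 14513 counts, and NDUFA9, with 14555, share 33.8% and 16.4% of their exon bases with genes on the same strand. Reads of all these genes, NDUFA9 and NDUFB8 included, may have been assigned elsewhere, so their values are uncertain.

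In IMR-90 on day 7 the subunit genes moved in both directions and by little. Of the 36 genes, 6 rose and 7 fell in senescent against proliferating cells, while 25.9% of the 19077 genes tested rose and 23.6% fell. The median log2 fold change of the 36 was -0.10, with a range of -0.57 to 0.78, against a median of 0.09 over all genes. That share of calls, 36.1%, was below the 49.6% of all genes called in either direction. None changed by 2-fold. Of the 36, 13 passed here, against 6 with only the compared groups in the fit, 4 without the filter on low counts and 1 with the replicate number as a block and only the compared groups, so how many genes pass depends on the fit. In the same order, those fits called 3930 up and 3653 down of all 17342 genes, 5888 and 4142 of 44677, and 2442 and 2269 of 17342. The summed level was 1405 ± 55.2 CPM in senescent and 1487 ± 96.9 CPM in proliferating cells (SD, n = 3 each).

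Most of the genes that rose in IMR-90 belonged to the membrane arm, as do most of the 36 genes (9 proximal and 12 distal). The risers thus set no module apart, and 25.9% of all genes rose. NDUFA1, a small subunit that spans the membrane and is needed for assembly, stood at 44.3, 35.8 and 39.9 CPM in senescent cells, against 25.3, 23.9 and 22.1 CPM in proliferating cells. Every senescent library lay above every proliferating one, and the log2 fold change was 0.75 (SE 0.15, edgeR adjusted p = 0.000944). NDUFA3, another accessory subunit of the proximal membrane arm, had 27.9, 24.4 and 28.5 CPM in senescent and 21.2, 18.7 and 21.0 CPM in proliferating cells, with no overlap and a log2 fold change of 0.41 (SE 0.11, edgeR adjusted p = 0.00821). NDUFB2, an accessory subunit of the distal membrane arm, had 59.1, 52.7 and 52.5 CPM in senescent and 43.6, 40.4 and 42.0 CPM in proliferating cells. Its groups were also apart, by 0.38 on the log2 scale (SE 0.08, edgeR adjusted p = 0.00181).

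NDUFB1, another small distal subunit, had 22.3, 18.4 and 19.3 CPM in senescent and 14.1, 16.3 and 14.97 CPM in proliferating cells, so that the groups did not overlap (log2 fold change 0.40, SE 0.11, edgeR adjusted p = 0.00839). NDUFC2, of the proximal arm, had 21.6, 24.8 and 17.7 CPM in senescent and 17.2, 11.8 and 16.2 CPM in proliferating cells. Its lowest senescent library was just above its highest proliferating one, at a log2 fold change of 0.50 (SE 0.19, edgeR adjusted p = 0.0414). NDUFV3 was the single gene of the N module to rise, with 46.7, 45.6 and 50.3 CPM in senescent against 41.1, 38.3 and 37.8 CPM in proliferating cells. Its groups did not overlap (log2 fold change 0.28, SE 0.09, edgeR adjusted p = 0.0195).

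Of the genes that fell in IMR-90, most were of the matrix arm, where 3 of 8 N-module and 2 of 7 Q-module genes fell. In the membrane arm 1 of 9 proximal and 1 of 12 distal genes did. Over all genes 23.6% fell, so these small counts set no module apart. When any 1 library was left out, NDUFA12 and NDUFS1 kept their calls. NDUFS6, NDUFA5 and NDUFA9 lost theirs in at least 1 such fit. NDUFA12, an accessory N-module subunit related to the assembly factor NDUFAF2, had 28.0, 25.3 and 22.5 CPM in senescent and 40.5, 35.6 and 36.8 CPM in proliferating cells. All senescent libraries were below all proliferating ones, and the log2 fold change was -0.57 (SE 0.10, edgeR adjusted p = 0.000421). NDUFS1, the core subunit that carries several of the iron-sulfur clusters, had 86.8, 95.1 and 97.5 CPM in senescent and 128, 133 and 121 CPM in proliferating cells, again with no overlap (log2 fold change -0.45, SE 0.10, edgeR adjusted p = 0.00151).

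NDUFA9, a Q-module subunit that binds NADPH, had 6.602, 5.04 and 8.61 CPM in senescent and 9.06, 10.3 and 8.85 CPM in proliferating cells. The groups were separated by a narrow margin, at a log2 fold change of -0.48 (SE 0.18, edgeR adjusted p = 0.0358). NDUFS6, a zinc-binding N-module subunit, had 37.8, 33.8 and 37.4 CPM in senescent and 52.4, 42.1 and 48.6 CPM in proliferating cells, all senescent values being lower (log2 fold change -0.39, SE 0.13, edgeR adjusted p = 0.0192). NDUFB6, NDUFA5 and NDUFA8 fell by 0.37, 0.35 and 0.28 on the log2 scale. Among the core genes NDUFS1 alone passed the test, and NDUFV1, which holds the flavin that accepts electrons from NADH, had a log2 fold change of 0.00 (interval -0.19 to 0.18, edgeR adjusted p = 0.982).

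Of the 36 genes, 8 had all senescent libraries above the proliferating ones (29.4% of all genes did) and 9 had all of them below (26.3% of all genes). The calls of NDUFA12, NDUFA1, NDUFA3, NDUFB1, NDUFB2, NDUFB6 and NDUFS1 held when any 1 of the 6 libraries was left out, while NDUFA5, NDUFA8, NDUFA9, NDUFC2, NDUFS6 and NDUFV3 lost theirs in at least 1 of those fits, with adjusted p of up to 0.172 (NDUFC2 without the proliferating library 2). The fibroblast markers also moved with senescence: 2 of 8 rose, and their summed level was 23020, 23627 and 37370 CPM in senescent against 6305, 19407 and 6226 CPM in proliferating libraries, where library 2 stood apart. Their part in the result was not tested, and without that library 12 of the 36 genes were called, 4 up and 8 down.

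**Figure D1:**
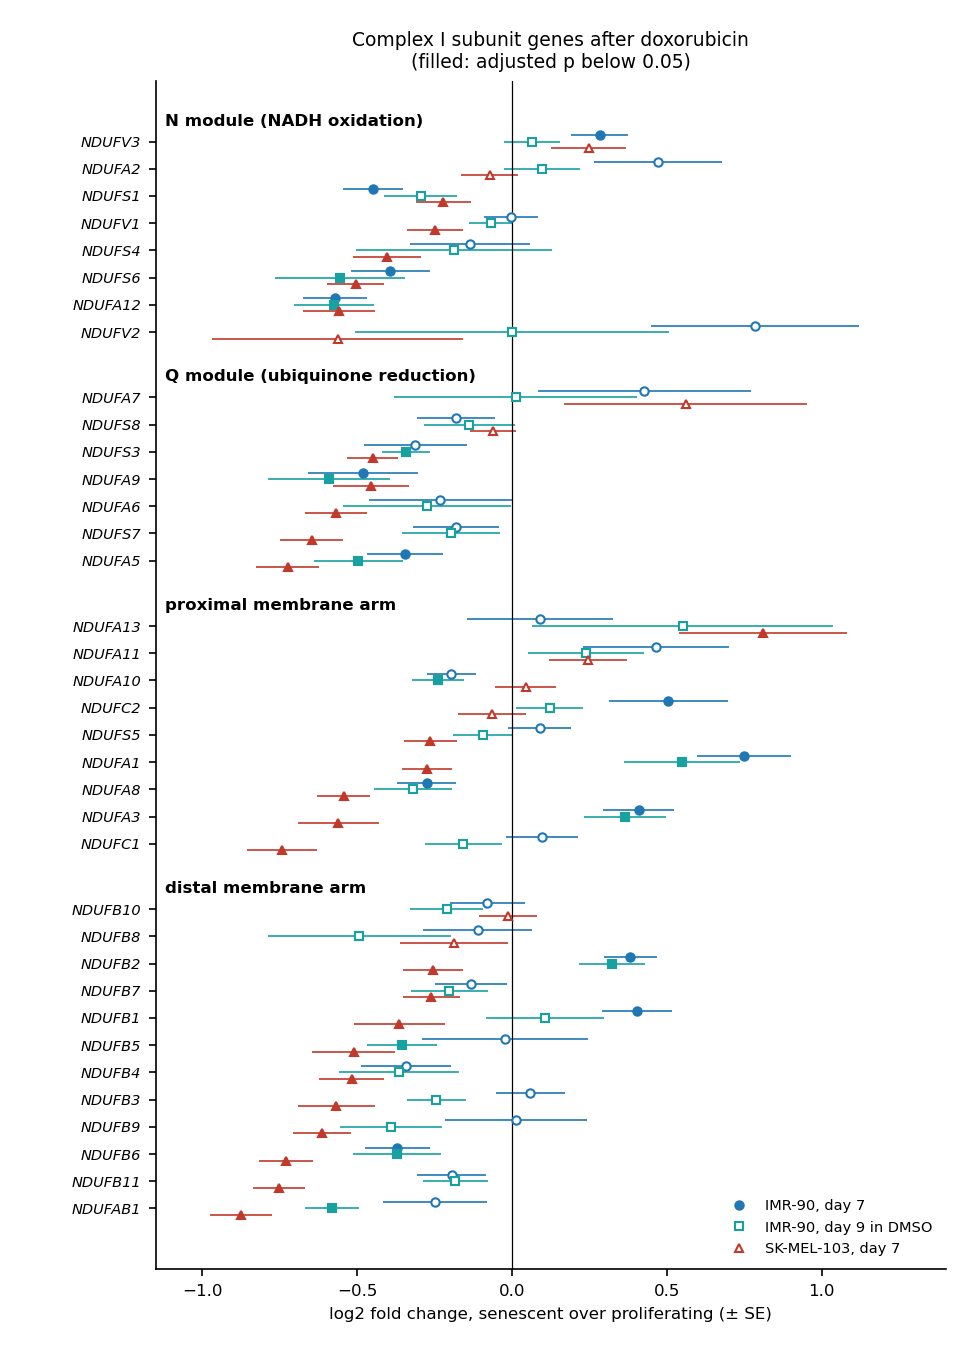
Log2 fold change of each of the 36 genes, senescent over proliferating, with its SE, in IMR-90 on day 7, SK-MEL-103 on day 7 and IMR-90 on day 9; genes are ordered by module and filled points passed edgeR's adjusted p of 0.05. In SK-MEL-103 most points lie to the left of 0, with 25 filled there, while in IMR-90 filled points lie on both sides.

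The same drug gave a mainly downward change in SK-MEL-103. Of the 36 genes, 1 rose and 25 fell, while 29.4% of the 17945 genes tested rose and 29.9% fell (59.3% in either direction), and the median log2 fold change was -0.43 against 0.03 over all genes. All 12 genes of the distal membrane arm had a negative fold change and 10 of them fell. In the other modules 5 of 8 N-module, 5 of 7 Q-module and 5 of 9 proximal genes fell, and 4 of the 6 core genes did. The summed level was 1526 ± 22.2 CPM in senescent and 1981 ± 63.1 CPM in proliferating cells (SD, n = 3 each). No gene changed by 2-fold.

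NDUFAB1, the mitochondrial acyl carrier protein that is also a subunit of the complex, fell furthest. It had 41.7, 40.1 and 38.1 CPM in senescent and 64.1, 83.8 and 72.3 CPM in proliferating SK-MEL-103 cells. The groups did not overlap, and the log2 fold change was -0.88 (SE 0.10, edgeR adjusted p = 1.1e-06). NDUFB11, an accessory subunit of the distal arm encoded on the X chromosome, had 43.0, 41.6 and 44.6 CPM in senescent and 70.6, 72.9 and 74.6 CPM in proliferating cells. Replicates agreed closely in both groups, and the log2 fold change was -0.75 (SE 0.08, edgeR adjusted p = 8.16e-07).

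NDUFC1, of the proximal arm, had 16.5, 15.2 and 16.9 CPM in senescent and 24.7, 29.2 and 27.4 CPM in proliferating SK-MEL-103 cells, all senescent values being lower (log2 fold change -0.74, SE 0.11, edgeR adjusted p = 2.54e-05). NDUFB6, of the distal arm, had 21.6, 22.8 and 23.6 CPM in senescent and 34.9, 40.2 and 38.0 CPM in proliferating cells, again without overlap (log2 fold change -0.73, SE 0.09, edgeR adjusted p = 1.82e-06). NDUFA5 and NDUFS7, Q-module genes of which the second encodes a core subunit, fell by 0.72 and 0.65 on the log2 scale. NDUFA13 was the 1 gene that rose, with 2.63, 2.61 and 1.88 CPM in senescent and 1.04, 1.42 and 1.73 CPM in proliferating cells (log2 fold change 0.81, SE 0.27, edgeR adjusted p = 0.0165). It is among the genes whose reads overlap a neighbour, and it lost its call without the senescent library 1 or 2 or the proliferating library 1 (adjusted p of up to 0.0813).

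Of the 6 genes that rose in IMR-90 on day 7, NDUFA1, NDUFA3, NDUFB1 and NDUFB2 fell in SK-MEL-103. NDUFA1 had 35.3, 35.99 and 35.9 CPM in senescent and 40.0, 44.1 and 45.7 CPM in proliferating SK-MEL-103 cells, without overlap and at a log2 fold change of -0.28 (SE 0.08, edgeR adjusted p = 0.0075). NDUFA3 had 37.6, 36.3 and 35.0 CPM in senescent and 41.2, 60.0 and 60.0 CPM in proliferating cells, where library 1 was well below libraries 2 and 3 (log2 fold change -0.56, SE 0.13, edgeR adjusted p = 0.00143). NDUFB2 had 44.2, 44.6 and 43.5 CPM in senescent and 45.1, 51.1 and 62.1 CPM in proliferating cells, a wide spread in which the lowest proliferating library nearly met the senescent ones (log2 fold change -0.26, SE 0.10, edgeR adjusted p = 0.0324). NDUFB1 had 18.1, 20.9 and 17.2 CPM in senescent and 20.5, 25.7 and 26.2 CPM in proliferating cells, and these groups overlapped (log2 fold change -0.36, SE 0.15, edgeR adjusted p = 0.041).

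In SK-MEL-103, 24 of the 36 genes had all senescent libraries below all proliferating ones (31.1% of all genes did) and 3 had them above (31.8% of all genes). Of the 26 calls, 19 held when any 1 of the 6 libraries was left out, and those of NDUFA13, NDUFB1, NDUFB2, NDUFB7, NDUFS1, NDUFS5 and NDUFV1 were lost in at least 1 such fit, with adjusted p of up to 0.226 (NDUFS1 without the proliferating library 1). The melanocyte markers summed to 609, 683 and 610 CPM in senescent and 604, 483 and 625 CPM in proliferating SK-MEL-103 libraries. Among these markers MLANA was below 0.1 CPM in both groups, and DCT was in senescent cells. Fibroblast markers summed to 95.2, 90.0 and 104 CPM in senescent and 37.7, 17.01 and 21.7 CPM in proliferating libraries, with DCN and THY1 below 0.1 CPM. Their part in the result was not tested.

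**Figure D2:**
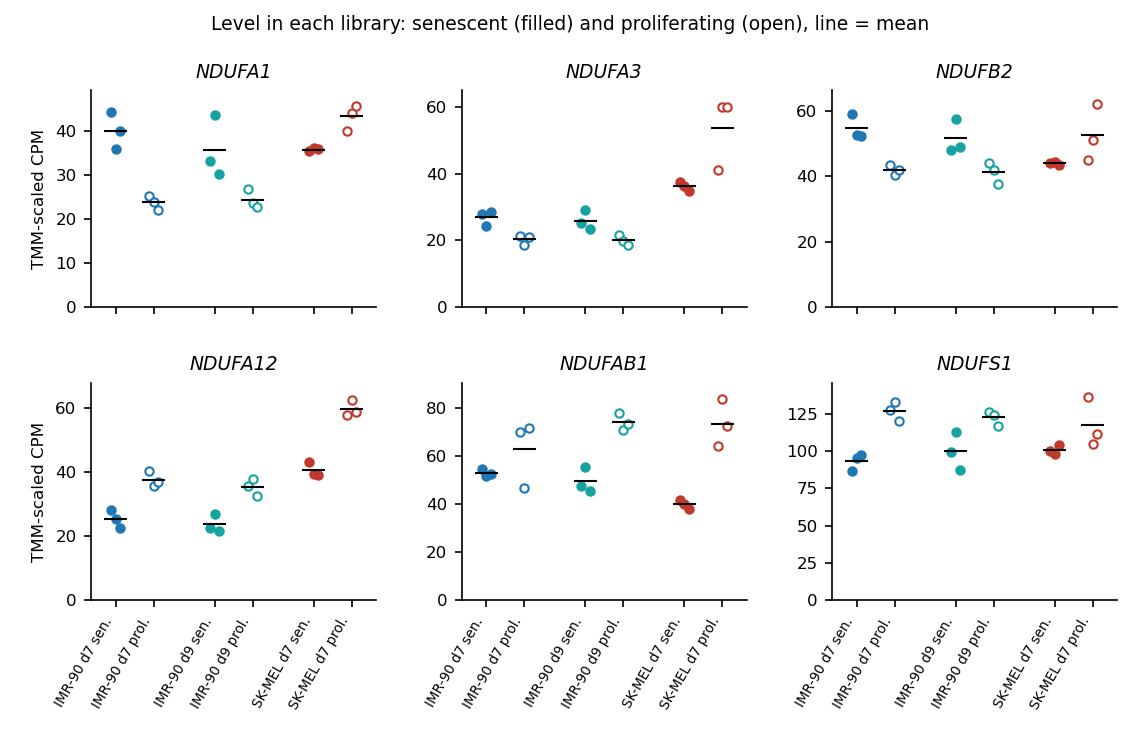
CPM of NDUFA1, NDUFA3, NDUFB2, NDUFA12, NDUFAB1 and NDUFS1 in every senescent (filled) and proliferating (open) control library of the 3 doxorubicin comparisons, with a line at the mean of 3. NDUFA1, NDUFA3 and NDUFB2 are higher in senescent IMR-90 and lower in senescent SK-MEL-103 than in the proliferating cells, while NDUFA12 is lower in all 3.

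IMR-90 cells on day 9, in DMSO, gave an independent set of libraries of the same line. Of the 36 genes, 3 rose and 9 fell, while 28.3% of the 19056 genes tested rose and 26.2% fell (54.4% in either direction), and the median log2 fold change was -0.20 against 0.11 over all genes. The summed level was 1334 ± 137 CPM in senescent and 1538 ± 82.3 CPM in proliferating cells (SD, n = 3 each). Of the 3 that rose, 2 were proximal and 1 was distal, and those that fell were 2 N-module, 3 Q-module, 1 proximal and 3 distal genes.

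NDUFA1 had 33.1, 43.5 and 30.3 CPM in senescent and 26.8, 23.7 and 22.6 CPM in proliferating cells on day 9, with no overlap and senescent library 2 the highest (log2 fold change 0.55, SE 0.19, edgeR adjusted p = 0.0293). NDUFA3 had 25.1, 29.1 and 23.4 CPM in senescent and 21.7, 19.9 and 18.7 CPM in proliferating cells, again apart (log2 fold change 0.37, SE 0.13, edgeR adjusted p = 0.0377). NDUFB2 had 48.2, 57.6 and 49.2 CPM in senescent and 44.1, 41.9 and 37.8 CPM in proliferating cells, and every senescent value was higher (log2 fold change 0.32, SE 0.11, edgeR adjusted p = 0.0246). These were the 3 genes that rose. Each lost its call in at least 3 of the 6 fits without 1 library, with adjusted p of up to 0.123 for NDUFA1, 0.145 for NDUFA3 and 0.107 for NDUFB2, in each case without senescent library 2.

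NDUFAB1 had 47.6, 55.2 and 45.4 CPM in senescent and 77.9, 70.8 and 73.2 CPM in proliferating cells on day 9, far apart on this scale (log2 fold change -0.58, SE 0.09, edgeR adjusted p = 0.000274). NDUFA12 had 22.7, 27.0 and 21.5 CPM in senescent and 35.7, 37.7 and 32.5 CPM in proliferating cells, without overlap (log2 fold change -0.57, SE 0.13, edgeR adjusted p = 0.00358). NDUFS3, a core subunit of the Q module, had 37.6, 38.5 and 37.9 CPM in senescent and 50.3, 50.9 and 43.3 CPM in proliferating cells, and the senescent libraries were the lower ones (log2 fold change -0.34, SE 0.08, edgeR adjusted p = 0.00388). The calls of these 3 genes held when any 1 of the 6 libraries was left out.

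NDUFA9 had 5.33, 7.399 and 6.31 CPM in senescent and 10.0, 9.54 and 9.06 CPM in proliferating cells on day 9, all senescent values being lower (log2 fold change -0.59, SE 0.20, edgeR adjusted p = 0.0266). NDUFS6 had 29.6, 45.7 and 28.9 CPM in senescent and 53.0, 52.9 and 47.4 CPM in proliferating cells, where senescent library 2 came close to the proliferating ones (log2 fold change -0.56, SE 0.21, edgeR adjusted p = 0.0436). NDUFA5, NDUFB6, NDUFB5 and NDUFA10 fell by 0.50, 0.37, 0.36 and 0.24 on the log2 scale. The day 9 count rested on single libraries: 5 genes were called without proliferating library 2, 6 without proliferating library 1, 7 without senescent library 1 and 14 without senescent library 2. Of the 8 fibroblast markers 6 rose here, with sums of 12425, 18527 and 24113 CPM in senescent and 5107, 6670 and 6317 CPM in proliferating libraries, and their part in the result was not tested.

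Set side by side, the 2 IMR-90 comparisons share no sample. NDUFA1, NDUFA3 and NDUFB2 rose in both, which is 50.0% of the genes that rose on day 7 and all 3 of those on day 9. Over all 18548 genes tested in both, 76.8% of those that rose on day 7 and 70.5% of those on day 9 were shared. NDUFA12, NDUFA5, NDUFA9, NDUFB6 and NDUFS6 fell in both, or 71.4% of those that fell on day 7 and 55.6% of those on day 9, against 84.9% and 76.7% over all genes. No subunit gene was called in opposite directions. Across the 36 genes, which share the line, the annotation and the counting and are not independent replicates, the fold changes had the same sign in 31 (87.7% of all genes did) and a Pearson correlation of 0.81 (Spearman 0.84).

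Between IMR-90 on day 7 and SK-MEL-103, 7 genes fell in both, which is all 7 of those that fell in IMR-90 and 28.0% of those that fell in SK-MEL-103. Over all 16400 genes tested in both, these shares were 69.2% and 59.3%, and since 25 of the 36 genes fell in SK-MEL-103 a large overlap follows from that count. NDUFA1, NDUFA3, NDUFB1 and NDUFB2 rose in IMR-90 and fell in SK-MEL-103, or 4 of the 6 that rose in IMR-90 and 4 of the 25 that fell in SK-MEL-103, against 5.69% and 4.18% over all genes. Here too, 25 of the 36 genes falling in SK-MEL-103 makes a large overlap likely. NDUFA12, NDUFA5, NDUFA9, NDUFB6 and NDUFS6 fell in all 3 doxorubicin comparisons. Of these 5, NDUFA12 kept its call in all 3 when any 1 library was left out, and the calls of all 5 held in SK-MEL-103. On day 9 NDUFB6 and NDUFS6 lost theirs in 5 of 6 fits (adjusted p of up to 0.152 and 0.153), NDUFA9 in 4 (up to 0.109) and NDUFA5 in 1 (0.0539), and on day 7 NDUFA5 and NDUFA9 lost theirs in 4 of 6 (up to 0.123 and 0.148) and NDUFS6 in 2 (0.0826).

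The upstream sequences below are shown because NDUFA1, NDUFA3 and NDUFB2 went up in senescent IMR-90 and down in senescent SK-MEL-103, while NDUFA12 fell in both. Each is the 250 bases before the annotated RefSeq start in GRCh38.p14, read 5′ to 3′ on the gene's own strand: chrX:119871582-119871831 (plus strand) for NDUFA1, chr19:54102605-54102854 (plus) for NDUFA3, chr7:140696458-140696707 (plus) for NDUFB2 and chr12:95003698-95003947 (minus) for NDUFA12. Capitals mark a match, on either strand, to 3 motifs of factors known to act on respiratory genes: the NRF1 consensus, CCGGAAG (ETS factors such as GABPA) and AAGATGGC (YY1).
NDUFA1: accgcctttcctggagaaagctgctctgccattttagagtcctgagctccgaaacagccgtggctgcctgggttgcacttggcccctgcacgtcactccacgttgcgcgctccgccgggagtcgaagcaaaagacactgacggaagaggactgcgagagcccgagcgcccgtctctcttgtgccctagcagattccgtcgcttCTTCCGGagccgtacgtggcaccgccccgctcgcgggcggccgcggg
NDUFA3: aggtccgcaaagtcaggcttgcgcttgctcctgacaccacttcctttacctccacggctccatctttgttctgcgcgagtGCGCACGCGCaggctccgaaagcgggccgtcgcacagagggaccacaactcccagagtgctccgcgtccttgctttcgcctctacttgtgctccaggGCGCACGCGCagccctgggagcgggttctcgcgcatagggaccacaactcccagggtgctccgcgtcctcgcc
NDUFB2: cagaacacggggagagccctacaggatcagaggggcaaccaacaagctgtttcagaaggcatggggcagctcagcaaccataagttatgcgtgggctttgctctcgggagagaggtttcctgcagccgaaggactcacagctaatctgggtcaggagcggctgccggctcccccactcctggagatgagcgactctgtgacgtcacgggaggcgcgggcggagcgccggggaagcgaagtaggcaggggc
NDUFA12: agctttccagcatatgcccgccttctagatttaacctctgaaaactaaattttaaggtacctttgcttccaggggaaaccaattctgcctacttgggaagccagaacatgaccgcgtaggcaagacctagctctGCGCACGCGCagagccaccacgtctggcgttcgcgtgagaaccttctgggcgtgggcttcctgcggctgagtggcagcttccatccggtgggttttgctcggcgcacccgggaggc
NDUFA3 holds an NRF1 match in 2 places and NDUFA12 in 1, NDUFA1 holds an ETS match, and the NDUFB2 window holds none of these letters. NDUFA3 and NDUFA12 both contain the NRF1 letters and moved in opposite directions in IMR-90, and any link between letters and direction was not tested.

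Windows of 300 bases, 250 before and 50 after the start, were found in RefSeq for 32 of the 36 genes. The NRF1 letters occur in 6 of them (18.8%, against 6.28% of all 27305 windows), the YY1 letters in 6 (18.8% against 3.03%) and the ETS letters in 5 (15.6% against 10.7%). GGGCGG, the core of SP-factor sites, occurs in 20 (62.5% against 44.6%) and CCAAT in 8 (25.0% against 35.7%). These motifs do not contain one another, and a match describes the letters and not binding, which was not measured. The genes lie at chrX:119871487-119876662 (NDUFA1, ENSG00000125356), chr19:54102728-54109257 (NDUFA3, ENSG00000170906), chr7:140690777-140722790 (NDUFB2, ENSG00000090266) and chr12:94897055-95003770 (NDUFA12, ENSG00000184752) in GENCODE 29, all protein-coding.

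Whether the response to doxorubicin differed between the lines was tested as an interaction, the SK-MEL-103 effect minus the IMR-90 effect, in 1 edgeR fit of the 36 siRNA libraries. Of the 36 genes, 1 had a higher and 7 a lower response in SK-MEL-103, while 13.0% of the 20892 genes tested had a higher and 9.33% a lower one (22.4% in either direction), and the median difference was -0.21 against 0.03 over all genes. The genes with a lower response were 3 of the proximal and 4 of the distal membrane arm, the 1 with a higher response was proximal, and no gene of the N or Q module passed. With RLE factors the split became 0 higher and 14 lower, and with DESeq2 0 and 16, and the median of all genes moved to -0.13 under both. Over all 20892 genes the split was 1880 higher and 2529 lower with RLE factors and 2118 and 2812 with DESeq2.

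NDUFA1 had the widest gap of the genes that passed, with a log2 difference of -0.93 (SE 0.17, edgeR adjusted p = 0.000289). NDUFA3 followed at -0.87 (SE 0.18, adjusted p = 0.00083) and NDUFC1 at -0.75 (SE 0.16, adjusted p = 0.00152). NDUFC1 had not passed in IMR-90 alone, where its log2 fold change was 0.10, and it fell in SK-MEL-103. In the distal arm the difference was -0.67 for NDUFB1 (SE 0.20, adjusted p = 0.0136), -0.54 for NDUFB2 (SE 0.13, adjusted p = 0.00296), -0.53 for NDUFB3 (SE 0.17, adjusted p = 0.0246) and -0.46 for NDUFB11 (SE 0.13, adjusted p = 0.0122), all from edgeR. NDUFA10, a proximal subunit that resembles nucleoside kinases, had the positive difference of 0.34 (SE 0.12, edgeR adjusted p = 0.0463). NDUFA1, NDUFA3, NDUFB2, NDUFB11 and NDUFC1 kept their calls when any 1 of the 12 libraries was left out, whereas NDUFA10 lost its call in 8 fits, NDUFB3 in 6 and NDUFB1 in 1, and 5 genes in all were called without the senescent IMR-90 library 1.

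**Figure D3:**
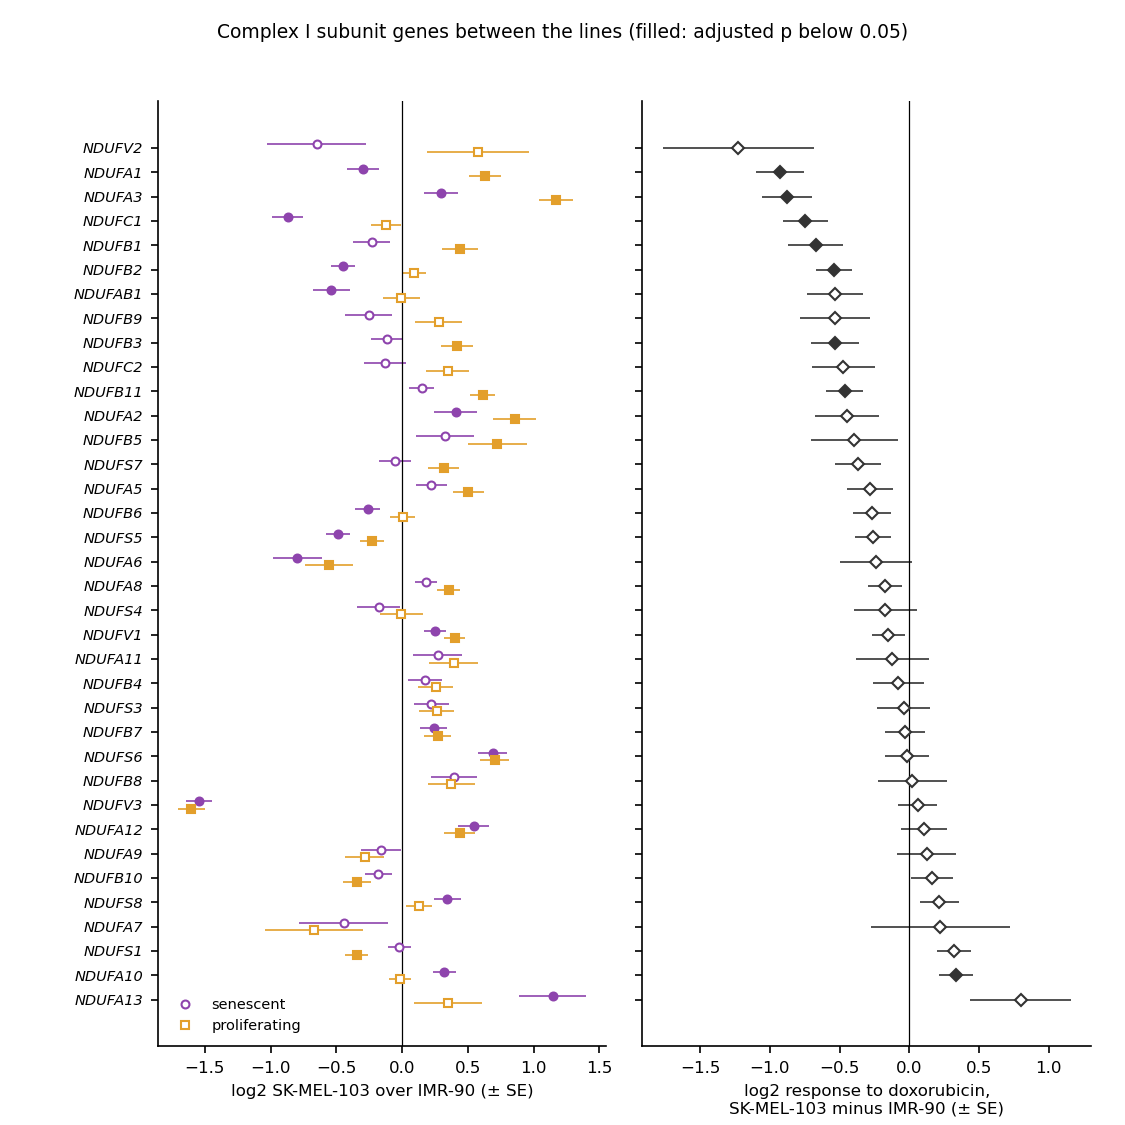
Left, log2 fold change of SK-MEL-103 over IMR-90 for each of the 36 genes, in senescent and in proliferating cells; right, the log2 difference between the lines in the response to doxorubicin, with SE and filled where the adjusted p was below 0.05. NDUFV3 lies far below 0 in both states at left, and NDUFA1, NDUFA3 and NDUFC1 have the most negative filled differences at right.

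Levels of the subunit genes also differed between the lines within a state. In proliferating cells 14 of the 36 genes were higher and 5 lower in SK-MEL-103 than in IMR-90, while 23.7% of all 20892 genes were higher and 28.3% lower (52.1% in either direction), and the median log2 fold change was 0.30 against -0.04 over all genes. The split leans further up with other scalings, at 18 higher and 4 lower with RLE factors, 19 and 4 with DESeq2, and 22 and 1 with library size only, which moves the median of all genes to 0.19. Over all genes these splits were 5490 and 5495, 5583 and 5557, and 6653 and 4455. In senescent cells 9 were higher and 8 lower, while 29.3% and 31.1% of all genes were (60.5% in either direction), and the median was -0.04 against -0.03 over all genes, a sign that library size alone turned to 0.10 for the 36 genes and 0.10 over all genes. The senescent split was 5 higher and 10 lower with RLE factors or DESeq2 and 15 and 5 with library size only, so no direction is given for the 36 genes in that state. Over all genes it was 5497 and 7062 with RLE factors, 5593 and 7096 with DESeq2, and 6883 and 5724 with library size only.

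NDUFV3, a small accessory subunit at the NADH-oxidising tip, was the gene that differed most. In senescent cells it had 16.5, 17.5 and 17.8 CPM in SK-MEL-103 and 49.6, 48.4 and 52.9 CPM in IMR-90, and in proliferating cells 13.9, 13.8 and 12.9 CPM in SK-MEL-103 and 43.5, 40.4 and 39.8 CPM in IMR-90. All 6 SK-MEL-103 libraries lay far below all 6 IMR-90 libraries, with a log2 fold change of -1.54 in senescent cells (SE 0.10, edgeR adjusted p = 2.94e-13) and -1.60 in proliferating cells (SE 0.10, edgeR adjusted p = 1.62e-13). NDUFA6, a Q-module subunit that binds the acyl carrier protein, was lower in SK-MEL-103 in both states, by 0.80 and 0.56 on the log2 scale. In senescent cells it had 23.2, 21.8 and 23.2 CPM in SK-MEL-103 and 40.6, 33.0 and 44.7 CPM in IMR-90.

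NDUFS6 was higher in SK-MEL-103 in both states, with 61.5, 63.3 and 61.1 CPM in senescent SK-MEL-103 and 40.2, 35.8 and 39.4 CPM in senescent IMR-90 (log2 fold change 0.69, edgeR adjusted p = 8e-06). Its log2 fold change in proliferating cells was 0.70 (edgeR adjusted p = 7.12e-06). NDUFA12 was likewise higher in SK-MEL-103 in both, at 0.54 in senescent and 0.44 in proliferating cells on the log2 scale. NDUFA2, an N-module subunit with a thioredoxin-like fold, was higher by 0.41 in senescent and 0.85 in proliferating cells, where it had 47.5, 53.3 and 50.1 CPM in SK-MEL-103 and 30.9, 21.8 and 30.7 CPM in IMR-90.

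NDUFA3 had 37.0, 54.5 and 53.1 CPM in proliferating SK-MEL-103 and 22.4, 19.7 and 22.2 CPM in proliferating IMR-90, well apart (log2 fold change 1.17, SE 0.13, edgeR adjusted p = 1.31e-08). NDUFB5, of the distal arm, spread more, at 55.3, 98.02 and 78.3 CPM in SK-MEL-103 and 54.3, 33.9 and 51.8 CPM in IMR-90, and its lowest SK-MEL-103 library nearly met the highest of IMR-90 (log2 fold change 0.72, SE 0.22, edgeR adjusted p = 0.00742). NDUFS1 and NDUFB10 were lower in proliferating SK-MEL-103, each by 0.34 on the log2 scale. In senescent cells NDUFC1 had 15.9, 14.7 and 16.1 CPM in SK-MEL-103 and 31.9, 26.2 and 27.1 CPM in IMR-90, the lower of the groups being SK-MEL-103 throughout (log2 fold change -0.87, SE 0.12, edgeR adjusted p = 3.28e-07), and NDUFAB1 was lower by 0.54. NDUFA13 was higher in senescent SK-MEL-103, with 2.53, 2.53 and 1.79 CPM against 0.992, 0.828 and 1.31 CPM in IMR-90, under the limit on its reads given above. NDUFA1 was higher in proliferating SK-MEL-103 (log2 fold change 0.63, edgeR adjusted p = 9.02e-05) and lower in senescent SK-MEL-103 (log2 fold change -0.30, edgeR adjusted p = 0.035). Its senescent call was lost in 5 of the 6 fits without 1 library. Calls were also lost for NDUFA2 in senescent cells in 3 fits (adjusted p of up to 0.177), and in proliferating cells for NDUFB5 in 2 (0.0786) and for NDUFA6 and NDUFB10 in 1 each (0.0516 and 0.0518). The lines also differ in tissue and in fibroblast markers, and what part that has in these values cannot be told apart.

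In none of the siRNA or compound comparisons did a subunit gene pass the test. For siMFN1, siMFN2, siMFN1+2 and siMAVS in IMR-90, 0 of the 36 genes were called in each by edgeR, while 1.08%, 0.0839%, 1.01% and 0.204% of all genes were, and 1, 1, 2 and 2 of the 36 had an unadjusted p below 0.05. For the same siRNAs in SK-MEL-103, 0 of the 36 were called in each, while 0.0892%, 0.0167%, 0.173% and 0.0836% of all genes were, and 2, 0, 0 and 0 had an unadjusted p below 0.05. DESeq2 gave 0 in all of these but siMFN1+2 in IMR-90, where it called NDUFB1, and 442 up and 429 down of all 19077 genes. With so few calls among all genes, 0 of 36 is near the background of these fits, which hold no replicate block. In IMR-90 with the block and only the compared groups, 1490 of 17858 genes rose and 1389 fell for siMFN1. For siMFN2 these were 1219 and 1117 of 18095. In SK-MEL-103 they were 521 and 590 of 16877 for siMFN2 and 656 and 728 of 16884 for siMFN1+2. In each of these block fits 0 of the 36 were called, below the share of all genes. For siMAVS 0 and 0 genes passed in IMR-90 and 0 and 2 in SK-MEL-103. The siMAVS libraries of IMR-90 were uneven: fibroblast markers summed to 38775, 10300 and 8600 CPM with siMAVS, against 23020, 23627 and 37370 CPM with the control siRNA, and markers of other cell types to 85.9, 23.6 and 23.2 CPM with siMAVS, against 22.4, 23.4 and 25.5 CPM with the control. The part of these values in the result was not tested. The labels number siMAVS library 3 as 35 and control library 3 as 89, and with a term for these ranges of numbers 0 of the 36 genes were called, at a median log2 fold change of 0.10 against 0.05 without it.

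The medians of the 36 log2 fold changes lay between -0.05 (siMFN1) and 0.07 (siMFN2) in IMR-90 and between -0.10 (siMFN1) and 0.04 (siMFN2) in SK-MEL-103. The intervals, at 95%, bound the changes: in IMR-90 30 to 32 of the 36 lay within 1.5-fold in either direction, and in SK-MEL-103 33 did for each siRNA, the exceptions being NDUFV2, NDUFA7 and NDUFA13. NDUFS1 had 90.5, 93.5 and 97.9 CPM with siMFN1+2 and 86.8, 95.1 and 97.5 CPM with the control siRNA in senescent IMR-90, which overlap almost wholly (log2 fold change 0.01, interval -0.19 to 0.22). In SK-MEL-103 its log2 fold change with siMFN1+2 was -0.03 (interval -0.22 to 0.15). NDUFV1 had a log2 fold change of 0.11 (interval -0.08 to 0.29) with siMFN1+2 in IMR-90 and 0.06 (interval -0.14 to 0.25) in SK-MEL-103. Under siMFN1+2, NDUFS3, NDUFA9 and NDUFB8 had log2 fold changes of -0.03, -0.08 and -0.04 in IMR-90 and -0.06, 0.02 and 0.15 in SK-MEL-103. For the other siRNAs these 5 genes ranged from -0.10 to 0.19 in IMR-90 and from -0.10 to 0.16 in SK-MEL-103.

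NDUFB1 came nearest to a call in IMR-90. It had 14.8, 15.9 and 13.4 CPM with siMFN1+2, against 22.3, 18.4 and 19.3 CPM with the control siRNA (log2 fold change -0.44, unadjusted p = 0.00133, edgeR adjusted p = 0.0748). With siMFN1 it had 15.6, 15.96 and 17.04 CPM, with siMFN2 16.02, 15.4 and 17.9 CPM and with siMAVS 17.3, 16.6 and 15.6 CPM, at log2 fold changes of -0.30, -0.28 and -0.28 and adjusted p of 0.223, 0.346 and 0.304. All 4 siRNA groups lay below the control libraries, which these comparisons share. With the replicate number as a block in a fit of siMFN1+2 and its control alone, NDUFB1 fell by 0.44 on the log2 scale (edgeR adjusted p = 0.035), and with the block in the fit of all groups no gene was called. NDUFB1 was named after its values were seen. NDUFV2 had the lowest fold changes, -1.09 with siMAVS and -0.80 with siMFN1+2, on few counts and with adjusted p of 0.183 and 0.29.

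With siMFN1 in SK-MEL-103, 12 of the 36 genes had all siMFN1 libraries below all control libraries (7.89% of all genes did) and 0 had them above (8.62% of all genes). NDUFS5 had 68.6, 64.0 and 73.5 CPM with siMFN1 and 80.3, 78.5 and 84.4 CPM with the control siRNA, a small but complete separation (log2 fold change -0.24, edgeR adjusted p = 0.898). NDUFB9 had 59.3, 55.5 and 64.2 CPM with siMFN1 and 70.0, 70.7 and 74.8 CPM with the control (log2 fold change -0.27, edgeR adjusted p = 0.862). With the replicate block in a fit of these groups alone, 7 genes fell: NDUFB9, NDUFS5, NDUFB3, NDUFB10, NDUFA12, NDUFB11 and NDUFA2, by 0.15 to 0.27 on the log2 scale. In that fit 1642 of all 16804 genes fell and 1452 rose. The block in the fit of all groups called none of the 36, and 12 up and 32 down of all 17945 genes. The interaction found 0 of the 36 genes with an siRNA response that differed between the lines for any of the 4 siRNAs, while 0.115% (siMFN1), 0.0239% (siMFN2), 0.129% (siMFN1+2) and 0.0239% (siMAVS) of all genes did. At an unadjusted p below 0.05 these counts were 0, 0, 2 and 1.

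The 2 compounds were compared at the doses used, which differ, so their values are set side by side without ranking them. Against DMSO, 0 of the 36 genes passed edgeR's test with MFI8 and 0 with BI, as did 0.0% of all genes in each case, and none of the 36 had an unadjusted p below 0.05 (DESeq2 also called 0). With the replicate block and only the compared groups, 143 of 18303 genes rose and 364 fell with MFI8. With BI these were 251 and 422 of 18113, and 0 of the 36 were called with either. The medians were 0.01 with MFI8 (range -0.37 to 0.24) and 0.05 with BI (range -0.34 to 0.21), and 29 and 27 of the 36 intervals lay within 1.5-fold. NDUFS1 had 96.2, 117 and 94.1 CPM with MFI8, 91.9, 109 and 94.1 CPM with BI and 99.6, 113 and 87.7 CPM with DMSO, and library 2 was the highest in each group. Its log2 fold change over DMSO was 0.03 with MFI8 (interval -0.23 to 0.30) and -0.02 with BI (interval -0.28 to 0.24). NDUFV1 had log2 fold changes of -0.03 with MFI8 (interval -0.19 to 0.12) and -0.08 with BI (interval -0.24 to 0.07), and NDUFS3 of -0.01 with both. The less abundant NDUFA9 and NDUFB8 had -0.20 and 0.24 with MFI8 and -0.16 and 0.21 with BI, with NDUFB8's interval reaching from -0.42 to 0.89 with MFI8.

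**Figure D4:**
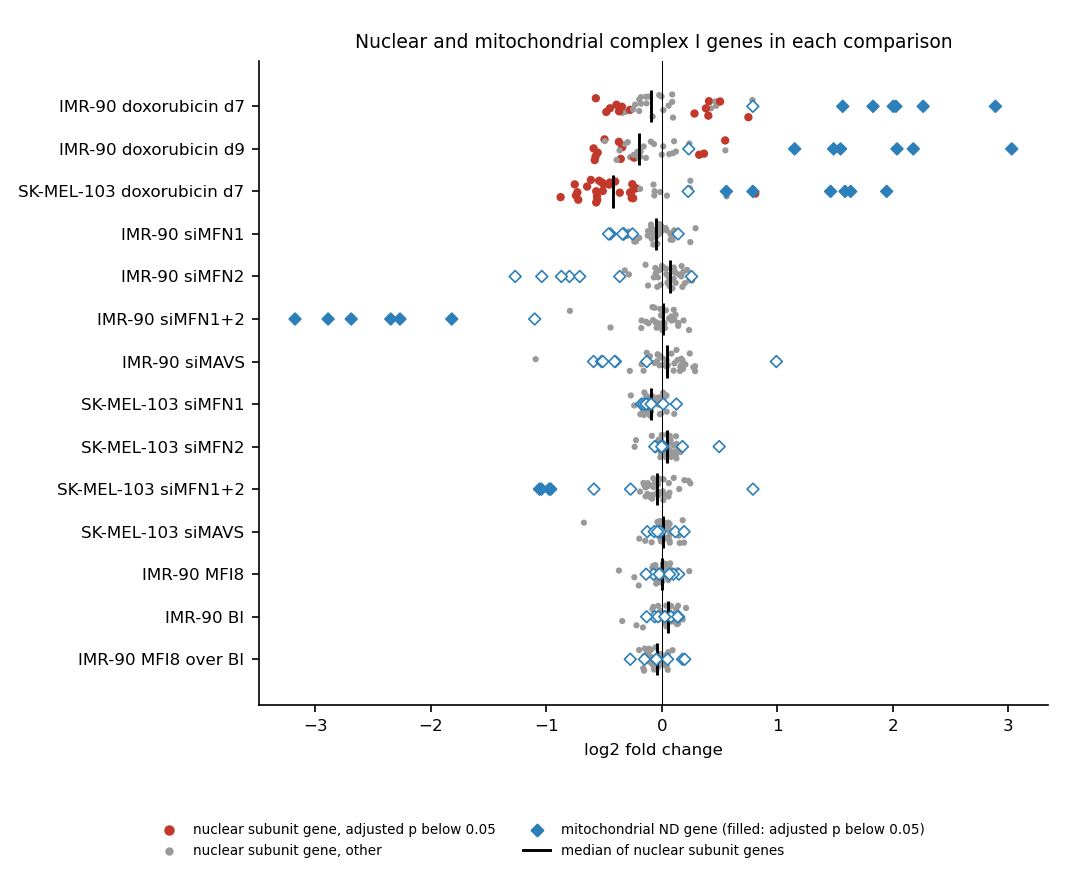
Log2 fold changes of the 36 nuclear and the 7 mitochondrially encoded complex I genes in the 14 comparisons within experiments, 1 point per gene and a black mark at the median. No nuclear gene passed the test in the siRNA and compound comparisons, where NDUFV2 lies lowest at -1.09 with siMAVS in IMR-90, while most mitochondrial ones lie above 0 with doxorubicin and below 0 with siMFN1+2.

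The mitochondrially encoded subunits of the same complex moved differently. MT-ND1 to MT-ND6 with MT-ND4L are 7 core genes of the membrane arm that are transcribed from mitochondrial DNA. In each doxorubicin comparison 6 of the 7 rose, MT-ND6 being the exception, with medians of 2.00 (IMR-90, day 7), 1.46 (SK-MEL-103) and 1.55 (IMR-90, day 9) on the log2 scale. MT-ND5 had 3707, 2764 and 3792 CPM in senescent and 381, 681 and 323 CPM in proliferating IMR-90 cells on day 7, a log2 fold change of 2.89 (SE 0.39, edgeR adjusted p = 3.24e-05). It rose by 1.95 in SK-MEL-103 and 3.03 in IMR-90 on day 9. MT-ND1 rose by 2.03, 1.64 and 1.49, MT-ND2 by 1.57, 0.79 and 1.15, MT-ND3 by 1.83, 0.56 and 1.55, MT-ND4 by 2.26, 1.59 and 2.18, and MT-ND4L by 2.00, 1.46 and 2.04 in the same order of comparisons. MT-ND6, encoded on the other strand of that genome, had 0.79, 0.23 and 0.23 with edgeR adjusted p of 0.122, 0.644 and 0.6. Its level was far lower, at 39.1, 18.1 and 28.9 CPM in senescent DMSO libraries on day 9, where MT-ND3 had 559, 332 and 631 CPM. Poly(A) RNA was sequenced, and how fully that captures MT-ND6 was not tested.

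With siMFN1+2 in senescent IMR-90 the same 6 fell, by 3.18 (MT-ND5), 2.89 (MT-ND4), 2.69 (MT-ND4L), 2.35 (MT-ND1), 2.27 (MT-ND3) and 1.82 (MT-ND2) on the log2 scale, and MT-ND6 had -1.10 (edgeR adjusted p = 0.218). In SK-MEL-103, MT-ND4, MT-ND4L and MT-ND5 fell, by 1.04, 0.98 and 1.060. The median of the 7 genes was -2.35 in IMR-90 and -0.96 in SK-MEL-103. For comparison, the sum of the 36 nuclear genes was 1433 ± 31.0 CPM with siMFN1+2 and 1405 ± 55.2 CPM with the control siRNA in IMR-90, and 1480 ± 90.4 and 1526 ± 22.2 CPM in SK-MEL-103 (SD, n = 3 each).

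The ratio of summed mitochondrial to summed nuclear CPM puts these together. In IMR-90 it was 1.71, 2.35 and 0.974 with siMFN1+2, against 11.2, 9.73 and 10.8 with cNEG and 2.14, 2.65 and 1.83 in proliferating cells. Its mean was 8.35 ± 1.62 with siMFN1, 5.33 ± 1.96 with siMFN2 and 7.21 ± 1.39 with siMAVS (SD, n = 3 each). In SK-MEL-103 the ratio was 3.06 ± 0.52 with siMFN1+2, 5.10 ± 0.221 with cNEG and 1.51 ± 0.287 in proliferating cells, while siMFN1, siMFN2 and siMAVS gave 4.999 ± 0.619, 4.95 ± 0.537 and 4.94 ± 0.483. On day 9 it was 9.31 ± 2.07 with MFI8, 9.59 ± 1.58 with BI, 9.67 ± 3.39 with DMSO and 2.14 ± 0.372 in proliferating cells. No test was run on the ratio, and 3 against 3 libraries could not go below an exact two-sided p of 0.1.

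**Figure D5:**
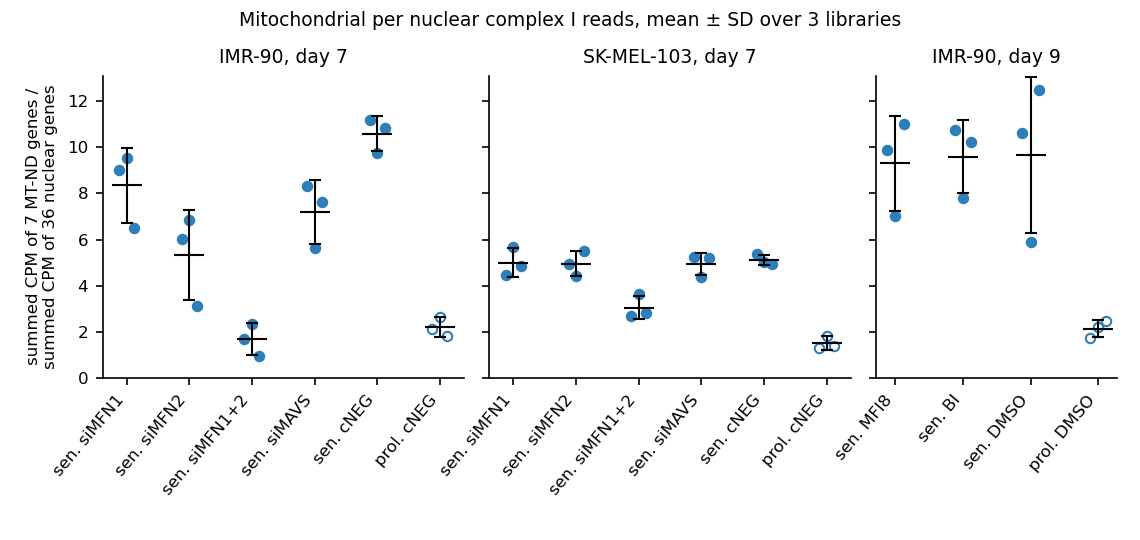
Ratio of the summed CPM of the 7 mitochondrially encoded to that of the 36 nuclear complex I genes in each library of the 16 groups, with mean and SD (n = 3). The senescent control groups lie above the proliferating ones, and siMFN1+2 lies near the proliferating level in IMR-90 and between the levels in SK-MEL-103.

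Related lists gave the surroundings of these changes. Of 19 complex I assembly factors, 9, 13 and 13 fell and 0 rose in IMR-90 on day 7, SK-MEL-103 and IMR-90 on day 9, with medians of -0.41, -0.62 and -0.63. ECSIT, which acts in assembly of the membrane arm, fell by 1.38 on day 7 and 1.57 on day 9 in IMR-90, and FOXRED1 by 0.94 and 1.10. In SK-MEL-103 TMEM70 fell by 1.34 and NDUFAF4 by 1.13. Of 38 nuclear subunits of complexes II to V, 13, 30 and 17 fell and 1, 1 and 0 rose, with medians of -0.17, -0.42 and -0.33. CYC1 and ATP5MC2 fell by 0.80 and 0.75 in IMR-90 on day 7 and by 0.92 and 0.95 on day 9, and UQCR10 rose by 0.29 on day 7. COX5A and SDHB fell by 0.98 and 0.93 in SK-MEL-103, and UQCR11 rose by 0.26.

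Among the iron-sulfur cluster assembly genes, 2 rose in each comparison, and 5 of 13, 6 of 12 and 5 of 13 fell, with medians of -0.36, -0.28 and -0.39. ISCU, the scaffold on which clusters are built, rose by 1.03, 0.60 and 0.79, and FDXR, the ferredoxin reductase that p53 is known to induce, by 1.37, 0.85 and 1.18. LYRM4 fell by 0.78 in IMR-90 on day 7, BOLA3 by 1.13 in SK-MEL-103, and LYRM4 and GLRX5 by 0.98 and 0.85 on day 9. FDX2 was not tested in SK-MEL-103. Of 10 regulators of respiratory genes, 6, 9 and 6 fell and 0 rose, with medians of -0.74, -0.99 and -0.49. TFAM, which is needed to transcribe and maintain mitochondrial DNA, fell by 1.68 and NRF1 by 1.14 in IMR-90 on day 7, and by 1.66 and 1.30 on day 9. PPARGC1B and MYC had the lowest fold changes in SK-MEL-103 and fell by 1.75 and 1.70. NDUFA4, named as a complex I gene but counted with complex IV, fell in SK-MEL-103 by 0.31 and had 0.20 and 0.15 in IMR-90 on days 7 and 9, and its relative NDUFA4L2 fell by 0.68 in IMR-90 on day 9. The shares of all genes that rose or fell in each comparison are the background for these counts too.

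Genes that overlap a subunit gene were measured beside it. RNF113A shares 44.5% of the exon bases of NDUFA1 on the opposite strand and had log2 fold changes of 0.26, -0.07 and 0.01 in IMR-90 on day 7, SK-MEL-103 and IMR-90 on day 9 (edgeR adjusted p = 0.151, 0.655 and 0.929). NDUFB2-AS1 and BRAF lie on the strand opposite NDUFB2, and their shares of its exon bases add up to 35.1%. In the same order NDUFB2-AS1 had 0.75, 0.56 and 0.45 (edgeR adjusted p = 0.0375, 0.0371 and 0.19) and BRAF had 0.06, -0.23 and 0.37. TFPT shares 6.3% of the exon bases of NDUFA3 and had -0.18, 0.64 and -0.37. The shares of EEF1B2 and AC007383.3 in the exon bases of NDUFS1, on the opposite strand, add up to 11.7%. EEF1B2 had -0.37, -1.29 and -0.55. The part of these genes in the subunit values was not tested. In all, 13 of the 36 genes share exon bases with a gene on the same strand and 17 with a gene on the opposite strand, and whether the counting used strand is not given in the sources used here.

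Likeness between the 36 genes was described by the Pearson correlation of mean log2 CPM over the groups of an experiment, which share depth patterns and control libraries. Over the 6 groups of the IMR-90 siRNA experiment the median of 630 pairs was 0.16, at 0.37 for genes of the same module and 0.08 for genes of different modules. Over the 6 SK-MEL-103 groups the median was 0.79, the same within and between modules (0.79 each), and over the 4 groups of the compound experiment it was 0.58, at 0.78 within and 0.52 between modules. NDUFA1 was most like NDUFB2 in the IMR-90 siRNA experiment (0.97), and NDUFA3 was most like NDUFA2 (0.99).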

How the data were processed

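Poly(A) RNA from IMR-90 and SK-MEL-103 cells was sequenced with a stranded kit and 10 cycles of PCR, per the labels' protocols, with no molecular identifiers, so intervals cover counting and replicate spread of reads, not of molecules. The deposited table holds raw counts per Ensembl gene, which the authors made with Trim Galore 0.6.7, STAR 2.7.10a, featureCounts and GRCh38, per the submitters' processing notes. The annotation release, the strand setting and the treatment of multiply mapped reads are not given in the sources used here. Symbols were matched for 48679 of 48898 identifiers, which left 0.122% of counts without one, and positions are from GENCODE 29. Some genes are not reported here.

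The count test was that of edgeR 4.0.16 in R 4.3.3, loaded with limma 3.58.1: filterByExpr, TMM, quasi-likelihood F tests on all groups of an experiment without a block, and Benjamini-Hochberg adjustment over all genes. Comparisons of the lines used 1 fit of 36 libraries, whose CPM differ slightly from those within an experiment. Intervals are at 95%. Alternatives were DESeq2 1.42.0, RLE factors, library size only, no filter, only the compared groups, a replicate block, leaving out each library and, for siMAVS in IMR-90, library number range as a covariate. Tables and figures used 1.17.8 of data.table, Python 3.11.15, pandas 2.3.3, numpy 2.4.6 and matplotlib 3.10.9. The fits were tested on simulated data.

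In each comparison the genes given in every library are the called ones, up to the 4 highest and 4 lowest fold changes, plus NDUFS1, NDUFV1, NDUFS3, NDUFA9 and NDUFB8 where fewer than 4 were called, and up to 2 highest and 2 lowest called genes of each other list. The members, lists, modules and this rule were chosen with earlier results of these data known. Others named were chosen after their values were seen. Libraries of replicate number 1 held 53390716 to 79204217 counts, those of number 2 between 30176556 and 50828283, and those of number 3 between 15206115 and 31127306. No 2 libraries of a group were copies of one another (48 pairs, smallest chi-square per degree of freedom 11.1). Same-numbered libraries deviated together, with all 3 correlations above 0.1, in the siRNA comparisons except siMAVS in IMR-90 and in the compound comparisons. In the doxorubicin comparisons the 3 were not all above 0.1. On day 9 they were 0.099, 0.081 and 0.169, each above the highest correlation of differently numbered libraries, 0.076. The pairing rests on this check and the numbers in the titles, 1 of which is missing and was taken as 1.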

Additional observations from a re-analysis of the deposited data

Results flagged for a closer look

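The response to doxorubicin differed between the lines, by the interaction in the joint edgeR fit, for 8 of the 36 subunit genes. In this fit that is near the share of all genes with such a difference, 22.4%. By direction, 7 had a lower response, where 9.33% of all genes did, and 1 a higher one, where 13.0% did. With RLE factors the count was 14, all lower, while 2529 of all 20892 genes were lower and 1880 higher. With DESeq2 it was 16, all lower, while 2812 were lower and 2118 higher. Whether the count sets the subunit genes apart thus depends on the scaling and the direction. NDUFA10 lost its call in 8 of the 12 fits without 1 library. The log2 difference, SK-MEL-103 minus IMR-90, was -0.929 for NDUFA1, -0.875 for NDUFA3, -0.745 for NDUFC1, -0.672 for NDUFB1, -0.542 for NDUFB2, -0.533 for NDUFB3, -0.463 for NDUFB11 and 0.337 for NDUFA10. NDUFA1, NDUFA3, NDUFB1 and NDUFB2 are those that rose in IMR-90 and fell in SK-MEL-103.

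The response to siMFN1+2 also differed, tested in the same way, for 4 mitochondrially encoded genes. The difference was 2.10 for MT-ND5 (SE 0.41, adjusted p = 0.0363), 1.83 for MT-ND4 (SE 0.34, adjusted p = 0.0223), 1.74 for MT-ND1 (SE 0.35, adjusted p = 0.0363) and 1.70 for MT-ND4L (SE 0.36, adjusted p = 0.0444). MT-ND3 differed in its response to doxorubicin, by -1.18 (SE 0.42, adjusted p = 0.0454).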

How the results depend on the processing

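Of 95 member values called by edgeR, 946 alternative values kept direction and call, 248 kept direction and lost the call, and 1 reversed: NDUFS5 in proliferating SK-MEL-103 over IMR-90 was 0.022 with library size only, against -0.23. Of the counts, 120 stayed within 1.5 times and 14 moved. Without the filter, 4 genes were called in IMR-90 on day 7 (13 with it), 4 on day 9 (12), 11 between the proliferating lines (19), 9 between the senescent lines (17) and 2 for the line difference (8). That setting called 5888 up and 4142 down of all 44677 genes on day 7, and 5627 and 4382 of 42669 on day 9. Of 47426 genes it called 4312 and 5548 between proliferating lines, 5555 and 6876 between senescent lines, and 2073 and 1542 for the line difference. With only the compared groups in the fit, 6 were called in IMR-90 on day 7, and 3930 up and 3653 down of all 17342 genes. DESeq2 gave 16 and RLE factors 14 for the line difference, and DESeq2 gave 1 for siMFN1+2 in IMR-90. The median over the genes moved to 0.54 between proliferating and 0.10 between senescent lines with library size only. That scaling split the day 9 calls 4 up and 5 down, against 3 and 9, and moved the all-gene median there to 0.22.

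Leaving out 1 library gave 9 to 12 calls in IMR-90 on day 7, 20 to 24 in SK-MEL-103, 5 to 14 on day 9, 15 to 19 and 12 to 17 between proliferating and senescent lines, 5 to 10 for the line difference, and 0 in each siRNA and compound comparison.

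With the replicate block in the fit of all groups, 15 genes were called in IMR-90 on day 7, 27 in SK-MEL-103, 20 and 16 between proliferating and senescent lines, 8 for the line difference and 23 on day 9 (3 up, 20 down). On day 9 the correlations of same-numbered libraries were not all above 0.1, so whether the numbers pair those samples is open. Over all genes it called 5200 up and 4905 down of 19077 in IMR-90 on day 7 and 5741 and 5743 of 17945 in SK-MEL-103. On day 9 it called 6780 and 6172 of 19056. Of 20892 genes it called 4792 and 5658 between proliferating lines, 6236 and 6153 between senescent lines, and 3430 and 2285 for the line difference. With the block and only the compared groups, 1 was called in IMR-90 on day 7, 9 on day 9 (3 up, 6 down), 16 in SK-MEL-103, 1 with siMFN1+2 in IMR-90 and 7 with siMFN1 in SK-MEL-103, the block changing no other siRNA or compound count. For doxorubicin, in the same order, these fits called 2442 up and 2269 down of all 17342 genes, 4627 and 4716 of 16943, and 4022 and 4538 of 16759. The counts were 1571 and 1445 of 18113 with siMFN1+2 in IMR-90, and 1452 and 1642 of 16804 with siMFN1 in SK-MEL-103. The causes of these shifts were not tested. Read depth limits NDUFA7, NDUFV2 and NDUFA13 most.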
